A study of Mus musculus with 6 samples.

Results

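Hmgcs1, Abca1, Lpin2 and Nr1h2 are 4 mouse genes of sterol and lipid metabolism. They were found in the deposited table by matching its RefSeq transcript accessions to these gene symbols, and they account for 5 of the 1037 listed transcripts. The genes were chosen from values of this same comparison, so their differences between the groups are given as a description and not as a test. RNA came from wild-type primary CD8+ T cells of mouse spleen kept in culture, and all libraries share that source. One group of 3 samples received daunorubicin (DNR), a topoisomerase II poison used against leukaemia, and the other group of 3 received only its solvent, dimethyl sulfoxide (DMSO), in each case for 2 h. The labels call the samples biological replicates without saying whether each came from its own mouse, so a spread between them may be technical.

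T cells need sterols and phospholipids to build membrane when they divide. The transcription factor SREBP-2 is released when membrane sterol is low and turns on the synthesis genes. The liver X receptors (LXR) bind oxysterols when sterol is plentiful and turn on genes of sterol export. Hmgcs1 encodes the cytosolic HMG-CoA synthase, which makes the substrate of HMG-CoA reductase and is a target of SREBP-2. Abca1 encodes the membrane pump that hands cholesterol and phospholipid to apolipoprotein A-I and is a target of LXR. Nr1h2 encodes LXR beta, a receptor known to restrain T cell proliferation. Lpin2 encodes a phosphatidate phosphatase, which makes the diacylglycerol from which triglycerides and several phospholipids are built.

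Stretches of the Hmgcs1 and Abca1 promoters are shown because these are the genes whose known sterol-responsive elements answer to SREBP-2 and to LXR. Sequences are RefSeq promoter windows of GRCm38.p6, which held all 4 genes, and only bases before the annotated start were searched, on both strands. The Hmgcs1 stretch is chr13:119690175-119690262 on the plus strand, 176 to 89 bases before the start, with the core of the sterol regulatory element, CACCCCAC, in capitals. The Abca1 stretch is chr4:53159941-53159969 on the minus strand, 74 to 46 bases before the start of NM_013454 at 53159895, and lies inside the gene range given below, which reaches further upstream than that transcript. Its capitals mark the known LXR element, searched as the half-sites TGACC and TAACC with 5 bases between them.
Hmgcs1: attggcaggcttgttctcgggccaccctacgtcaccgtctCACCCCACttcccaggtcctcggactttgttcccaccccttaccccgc
Abca1: cagcgttTGACCGGTAGTAACCccggcgc

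The core CACCCCAC stood in 2.58% of the 32851 promoter windows of 250 bases, and among the 4 genes in Hmgcs1 alone. The LXR half-sites stood in 0.0457% of windows and among the 4 genes in Abca1 alone. Those half-sites were written down from what is known of Abca1 itself, so finding them there is no result. Hmgcs1 was likewise shown for its known sterol-responsive element, so the core found there is no result either. The CCAAT box (CCAAT), often found beside sterol regulatory elements, occurred 3 times in the Hmgcs1 window, each time on the opposite strand, and 1 of these copies opens the stretch shown. It stood in 33.8% of all windows, and in 1 of the 3 windows of Lpin2, not the one at the start of the listed Lpin2 transcript. The E-box CACGTG stood in the window of Abca1, in 1 of the 3 windows of Lpin2, again not the one of the listed transcript, and in 6.02% of all windows. None of these matches overlapped another, and a match is a description of letters and not of a bound factor.

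The table gives FPKM, a level scaled to transcript length and sequencing depth, on the log2(FPKM + 1) scale. Levels below are FPKM unless a log2 scale is named, and differences are DNR minus DMSO. The 6 columns carry codes. Those with O match the DMSO descriptions, and those with D were taken as DNR because no DMSO description was left for them, so all directions depend on that reading. Read totals were not used here and the depth of each library is unknown; the listed FPKM summed to between 13501 and 14395 per library, each DNR sum being above each DMSO sum. A transcript was tested when it reached 1 FPKM in at least 3 libraries, which kept 388 transcripts.

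Of the 5 transcripts of the 4 genes, 3 passed that filter, and all 3 were called, 1 higher and 2 lower in DNR (limma, threshold 0.05 on the adjusted p). Among all tested transcripts 99.7% were called, 43.0% higher and 56.7% lower, so the count says nothing particular about these genes. How many of all transcripts had groups that did not overlap was not counted. A lack of overlap in the genes below therefore says nothing particular about them either. The table is named as a heatmap matrix and was in all likelihood assembled from transcripts that differed. It holds no entry for any of 11 fixed T cell markers such as Cd3e and Cd8a, so the labelled cell type could not be checked by these. The macrophage marker Csf1r was listed at 58.45 to 79.11 FPKM, as described below, so RNA of other cells in the libraries was not excluded. A lower level in bulk RNA does not tell fewer cells of a kind from less RNA per cell.

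Hmgcs1, the synthesis gene, was higher in every DNR library than in every DMSO library. The gene lies at chr13:119690351-119708260 and is listed by 1 of its 3 RefSeq transcripts, the predicted model XM_006517578. That transcript stood at 12.91, 15.44 and 16.73 FPKM in the DMSO libraries and at 22.11, 21.95 and 19.62 FPKM in the DNR libraries. The highest DMSO value and the lowest DNR value were 2.89 FPKM apart. The group means were 15.0 ± 1.94 and 21.2 ± 1.39 FPKM (SD, n = 3), so DNR was at 141% of DMSO. The difference was 0.48 ± 0.12 on the log2(FPKM + 1) scale (SE). It was near the middle of its kind: 137 tested transcripts above 0 in all 6 libraries were higher in DNR, with a median difference of 0.43, and Hmgcs1 ranked 62 among them by size.

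Abca1, the export gene, was lower in every DNR library than in every DMSO library. The gene lies at chr4:53030789-53159988 on the minus strand and is listed by 2 of its 4 RefSeq transcripts. The curated transcript NM_013454, with 50 exons in the GENCODE M21 annotation, had 18.75, 16.20 and 19.72 FPKM in the DMSO libraries and 14.83, 13.38 and 14.12 FPKM in the DNR libraries. The groups did not overlap, but the gap was 1.37 FPKM, with DMSO replicate 2 nearest to the DNR libraries. The means were 18.2 ± 1.82 and 14.1 ± 0.725 FPKM (SD, n = 3), and DNR was at 77.4% of DMSO.

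The Abca1 difference of -0.34 ± 0.09 on the log2(FPKM + 1) scale (SE) depended on scaling. Moving the libraries to a common median raised DNR by 0.13 against DMSO and left a difference of -0.21, and quantile normalization left -0.16. The transcript was not called under either. Both scalings were computed from the listed transcripts alone, and more of the tested ones were called lower than higher in DNR. A list in all likelihood assembled from transcripts that differed need not have equal medians in the groups. Which scaling is nearer to the true levels was not tested. With the common median, 55.1% of all calls were higher in DNR, against 43.2% as deposited; the number of higher calls was 167 in both, and the lower calls went from 220 to 136. A further Abca1 model, XM_006537555, was at 0.94 FPKM in DMSO replicate 2 and listed at 0 in the other 5 libraries. Transcripts of a gene can share reads, and DMSO replicate 2 was also the DMSO library with the least NM_013454. Whether the levels of the 2 models are linked in that library was not tested. Summed over the 2 listed transcripts, Abca1 had 18.75, 17.14 and 19.72 FPKM in the DMSO libraries. In DNR the sum equals NM_013454, which gives a difference of -0.37 ± 0.07 on the log2(FPKM + 1) scale (SE). The other RefSeq transcripts of Abca1 are not listed, so the sum is not the level of the whole gene.

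Lpin2, the phosphatidate phosphatase gene, had the widest separation between groups. It lies at chr17:71183532-71249818 and is listed by 1 of its 7 RefSeq transcripts, NM_022882, which has 20 exons in GENCODE M21. The values were 13.63, 15.36 and 13.75 FPKM in DMSO and 5.86, 3.21 and 5.52 FPKM in DNR. DNR replicate 2 was the lowest, and 7.77 FPKM separated the nearest libraries of the groups. The means were 14.2 ± 0.966 and 4.86 ± 1.44 FPKM (SD, n = 3), which puts DNR at 34.1% of DMSO. The difference of -1.41 ± 0.23 on the log2(FPKM + 1) scale (SE) ranked 3 by size among the 195 tested transcripts that were above 0 in all 6 libraries and lower in DNR, whose median was 0.41 in size; Abca1 ranked 123 among the same 195. The other 6 RefSeq transcripts of Lpin2 are not listed, so a shift between transcripts of the gene cannot be told apart from a lower level of the gene.

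Nr1h2, the gene of LXR beta, was seen only as 1 predicted model, whose values rest on 1 library. The gene lies at chr7:44549616-44553968, and the table lists XM_030242378, 1 of its 8 RefSeq transcripts. It had 0.97, 9.91 and 0.54 FPKM in the DMSO libraries and 0.31, 0.12 and 0 FPKM in the DNR libraries. The groups did not overlap, but only 0.23 FPKM lay between them, and DMSO replicate 2 stood far above the other 5 libraries. The transcript did not reach the filter and was not tested. Its difference was -1.50 ± 0.90 on the log2(FPKM + 1) scale (SE) and -0.62 without DMSO replicate 2, where the DMSO mean falls from 3.81 to 0.755 FPKM. With no filter on low values it was not called.

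**Figure D1:**
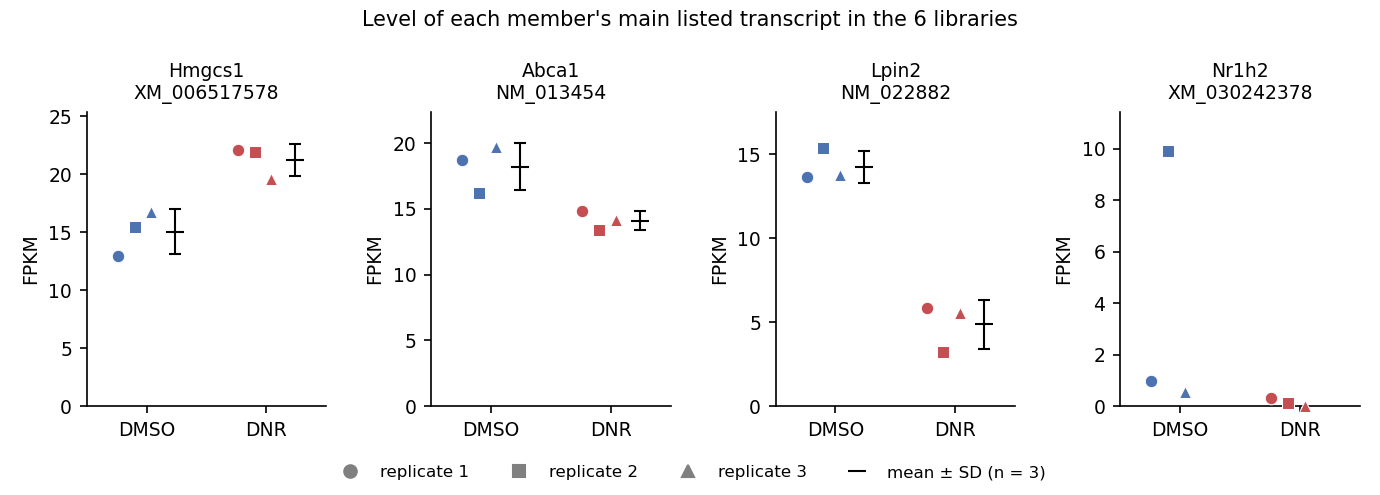
FPKM (y axis, linear from 0) of the main listed transcript of each of the 4 genes in the 3 DMSO (blue) and 3 DNR (red) libraries; the marker shape gives the replicate, and the black bar gives the mean ± SD (n = 3), left out for Nr1h2, which has a library at 0. Hmgcs1 is higher in all DNR libraries, Abca1 and Lpin2 are lower, and the Nr1h2 panel is set by DMSO replicate 2 at 9.91 FPKM.

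**Figure D2:**
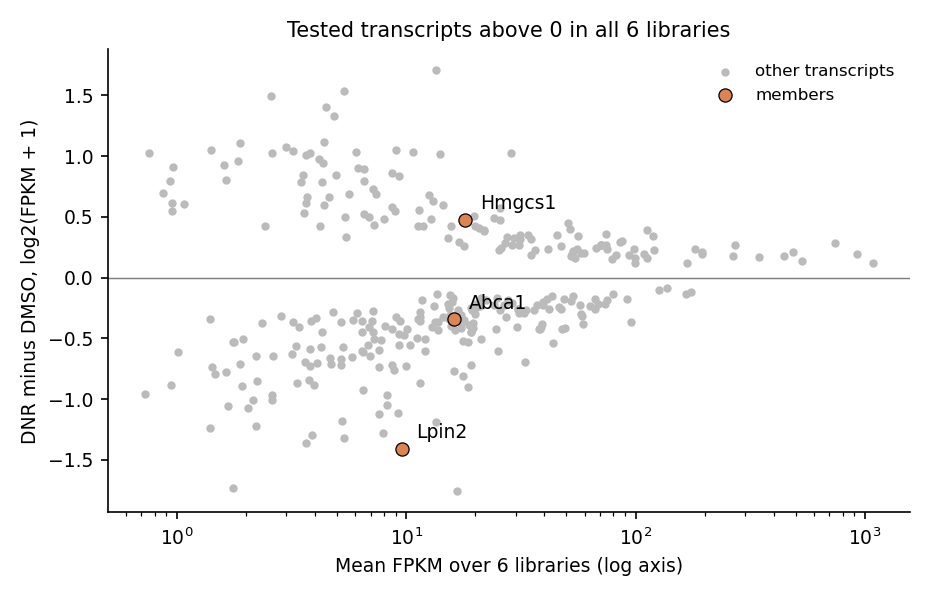
DNR minus DMSO on the log2(FPKM + 1) scale (y axis) against the mean FPKM over 6 libraries (x axis, log) for every tested transcript above 0 in all 6 libraries, with the 3 members among them marked. Hmgcs1 at 0.48 and Abca1 at -0.34 lie inside the upper and the lower band of points, Lpin2 at -1.41 lies at the lower edge, and the strip around 0 is empty.

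The order of levels differed between the groups. In DMSO, Abca1, Hmgcs1 and Lpin2 were close together at 18.2, 15.0 and 14.2 FPKM; Abca1 and Hmgcs1 overlapped in range, as did Hmgcs1 and Lpin2, while every Abca1 value was above every Lpin2 value. In DNR the order was Hmgcs1, Abca1 and Lpin2, with no overlap between neighbours. Nr1h2 came last in both groups.

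A ratio of 2 transcripts within a library does not depend on a single factor by which that library is scaled. Hmgcs1 over Abca1 was 0.689, 0.953 and 0.848 in the DMSO libraries and 1.49, 1.64 and 1.39 in the DNR libraries. Abca1 was thus the more abundant of that pair in every DMSO library and Hmgcs1 in every DNR library, and the mean ratio was 1.82 times as high in DNR. Hmgcs1 over Lpin2 was 0.947, 1.01 and 1.22 in DMSO and 3.77, 6.84 and 3.55 in DNR. Lpin2 over Abca1 was 0.727, 0.948 and 0.697 in DMSO and 0.395, 0.240 and 0.391 in DNR. The groups were apart in all 3 ratios. Both ratios with Hmgcs1 had to separate, since it was higher and the others lower in DNR without overlap, in genes chosen from this comparison. Ratios of other pairs of transcripts were not computed. The ratios do not say which of a pair changed.

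**Figure D3:**
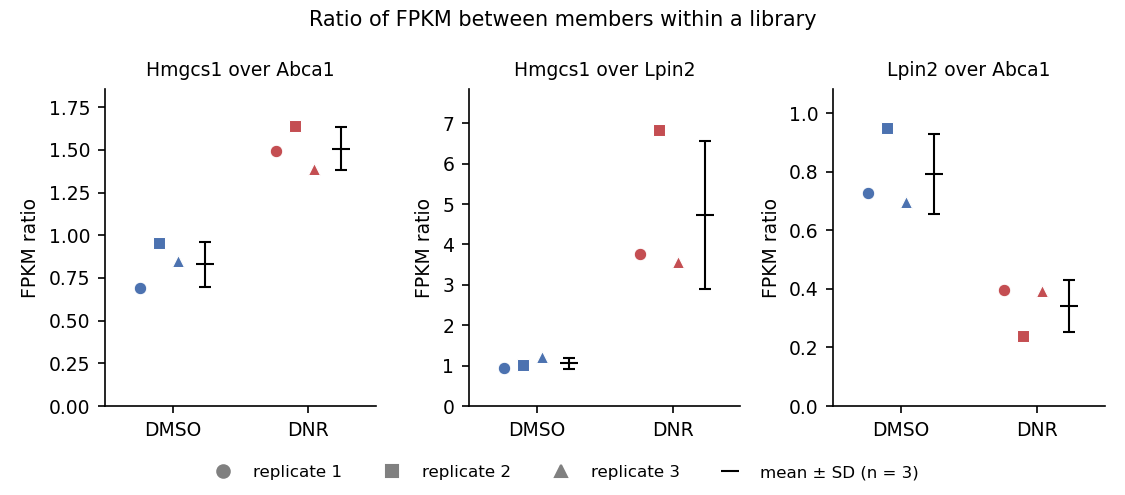
Ratio of FPKM between 2 members in the same library (y axis, linear from 0) for the 3 DMSO (blue) and 3 DNR (red) libraries, with the mean ± SD (n = 3) in black. Hmgcs1 over Abca1 lies under 1 in each DMSO library and above 1 in each DNR library, and both ratios with Lpin2 are most extreme in DNR replicate 2.

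Among all called genes, direction went with gene span. Genes called higher in DNR had a median span of 18.8 kb (155 genes) and genes called lower had 68.0 kb (199 genes). Hmgcs1 spans 17.9 kb, Lpin2 66.3 kb and Abca1 129.2 kb, so Hmgcs1 is near the former median, Lpin2 near the latter and Abca1 above it. Nr1h2, untested and lower, spans 4.35 kb. The part of gene span in these differences was not tested.

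Profiles most like each member were sought by the root mean square difference of log2(FPKM + 1) values, each centred on its mean over the 6 libraries, among transcripts above 0 in all of them. For Abca1 the nearest was Gpd2, the mitochondrial glycerol-3-phosphate dehydrogenase gene, at 0.022 against a median of 0.27 over 346 transcripts. Gpd2 had 17.52, 15.49 and 19.06 FPKM in DMSO libraries and 13.76, 12.89 and 13.61 FPKM in DNR libraries, and so shared the low DMSO replicate 2 of Abca1. The next were Lamc1, a laminin subunit gene, at 0.045 and Mars1, a methionyl-tRNA synthetase gene, at 0.049.

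For Hmgcs1 the near profiles described here were those of Fkbp1a, the gene of the FK506-binding protein FKBP12, at 0.087 and of the adaptor gene Sh3kbp1 at 0.10, against a median of 0.39. Fkbp1a had 17.76, 19.11 and 23.07 FPKM in DMSO libraries and 27.99, 27.75 and 29.04 FPKM in DNR libraries. For Lpin2 they were Fnbp1 at 0.22, the reticulophagy receptor gene Retreg1 at 0.25 and the splicing factor gene Mbnl1 at 0.27, against a median of 0.63; all 3 shared its lowest value in DNR replicate 2. For Nr1h2 no profile was close: Rnf13, the nearest, differed by 0.64. These are likenesses over 6 libraries that fall into 2 groups, and 99.7% of the tested transcripts were called between those groups.

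**Figure D4:**
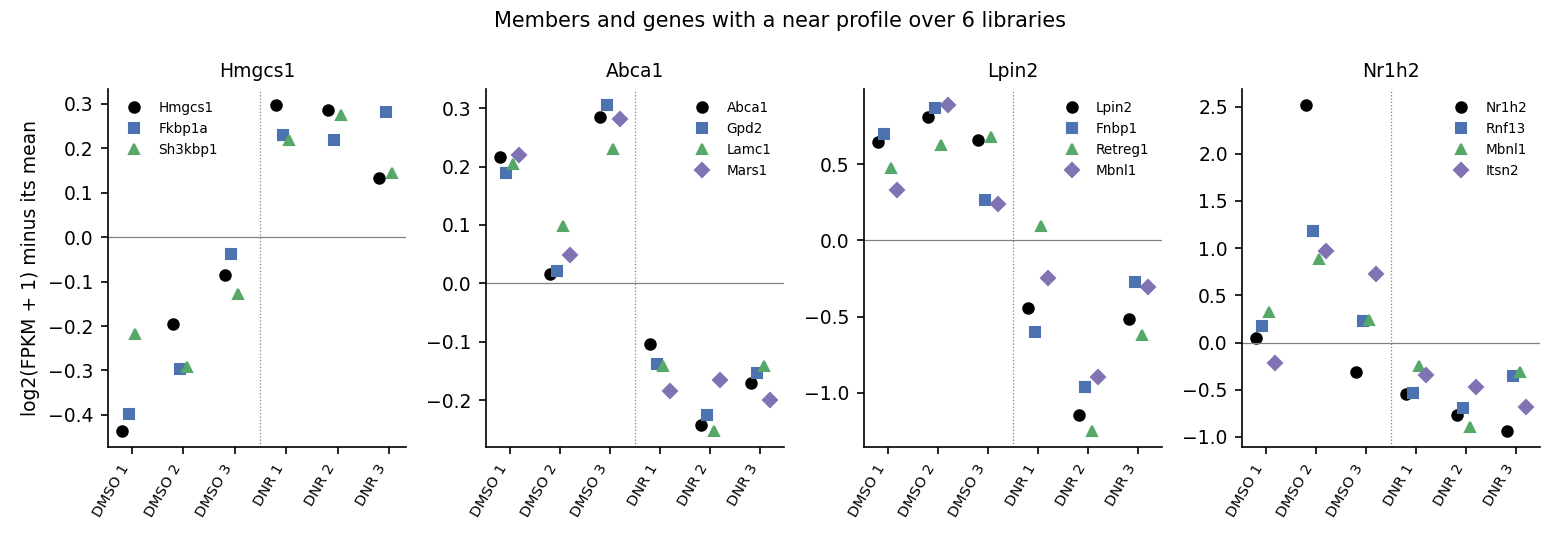
Values of log2(FPKM + 1) minus the transcript's mean over 6 libraries (y axis) in each library (x axis) for a member (black circles) and the 2 or 3 genes with a near profile that are described. Gpd2 lies almost on Abca1 in all 6 libraries, and the neighbours of Nr1h2 do not reach its value in DMSO replicate 2.

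Few other genes of lipid metabolism were listed. Of 126 genes fixed in 7 lists, 13 were in the table, with 15 transcripts, of which 7 were tested and called, 4 higher and 3 lower, beside the 43.0% higher and 56.7% lower over all tested transcripts. Of the 4 higher ones, those of Nr1h3 and Dgkz were at 0 in every DMSO library and passed the filter only through DNR, so they had to differ, and no direction of the lists is read from these counts. Leaving out the 4 members, 4 transcripts were tested, 3 higher and 1 lower, too few to describe a pathway. The lists share genes, and a gene absent from such a table has no value here.

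Of 20 sterol synthesis genes, only Hmgcs1 and Hsd17b7 were listed. Hsd17b7, a late enzyme of cholesterol synthesis, was untested at 0.77, 0.57 and 0.25 FPKM in DMSO and 0, 0 and 0.05 FPKM in DNR, the opposite order to Hmgcs1. None of 15 genes of SREBP control and sterol uptake, such as Insig1 and Srebf2, was listed. A change of the synthesis pathway as a whole can therefore not be read from Hmgcs1.

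Of 16 LXR receptors and targets, 3 genes were listed, and 1 transcript was called higher and 1 lower. Beside Abca1 and Nr1h2 this was Nr1h3, the gene of LXR alpha. Its predicted model XM_006499168 was listed at 0 in all 3 DMSO libraries and at 1.42, 1.82 and 1.28 FPKM in the DNR libraries, through which alone it passed the filter. The 2 receptor genes thus stood in opposite order, each by a single low predicted model.

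Of 29 genes of glycerolipid and phospholipid synthesis, 4 were listed, and 1 transcript was called higher and 2 lower. Cept1, which encodes an enzyme that uses diacylglycerol to make phosphatidylcholine and phosphatidylethanolamine, is a step beyond Lpin2. It fell from 3.28, 3.00 and 3.18 FPKM in DMSO to 1.75, 1.05 and 1.18 FPKM in DNR (log2 difference -0.85 ± 0.13, SE). A transcript of Dgkz, whose kinase turns diacylglycerol back into phosphatidate, had 0 in each DMSO library and 5.34, 2.60 and 3.37 FPKM with DNR, and is the one called higher, having passed the filter only through DNR; a further one had 2.42 FPKM in DMSO replicate 2 alone. Lpin1, the closest relative of Lpin2 in the table, was at 1.24 FPKM in DMSO replicate 3 and listed at 0 elsewhere.

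Plin2, which encodes the coat protein of lipid droplets, was the only listed gene of 10 for lipid storage. It rose from 9.06, 11.12 and 8.19 FPKM in DMSO to 13.35, 17.55 and 16.20 FPKM in DNR, with no overlap (log2 difference 0.68 ± 0.16, SE). Its difference was larger than that of Hmgcs1 in size and in the same direction; the difference between them was not tested. Of the fatty acid list, Pparg, a nuclear receptor gene of lipid storage, had 0 in each DMSO library and 0.58, 0.48 and 0.67 FPKM with DNR, untested, and Hadhb was above 0 in DNR replicate 2 alone. Of the sphingolipid list, Cers6 was above 0 in DMSO replicate 2 alone.

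Abca1, Nr1h3, Pparg and Plin2 are also well known from macrophages, so the markers of that cell type are given here. Of 14 monocyte and macrophage markers, 1 was listed. This was Csf1r, the receptor for the macrophage growth factor, at 63.23, 62.79 and 58.45 FPKM in DMSO and 69.62, 71.05 and 79.11 FPKM in DNR. Csf1r thus moved up in DNR, as Plin2 and Nr1h3 did and opposite to Abca1. In the other marker lists, transcripts of Itgax, Csf3r, Spib and Ebf1 reached 1 FPKM in at least 1 library and none passed 4.25 FPKM. Itgax, a dendritic cell marker, had 1 transcript at 1.23, 0.96 and 1.19 FPKM in the DMSO libraries and at 0 with DNR, and another at 0 in DMSO and 1.51, 1.20 and 1.14 FPKM with DNR. The 2 models of the B cell marker Spib went opposite ways as well, Ebf1 was above 0 in 2 DNR libraries alone, and Csf3r in DMSO replicate 2 alone. The other markers have no entry, and the part of other cells in these values was not tested.

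**Figure D5:**
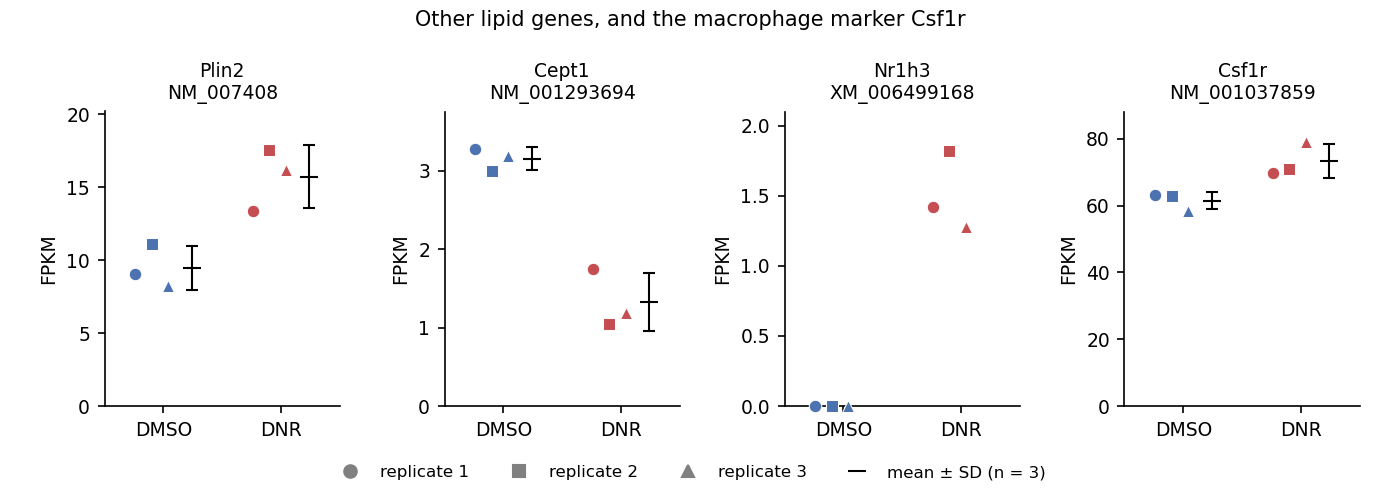
FPKM (y axis, linear from 0) of Plin2, Cept1, Nr1h3 and the macrophage marker Csf1r in the 3 DMSO (blue) and 3 DNR (red) libraries, with the mean ± SD (n = 3) in black where no library is at 0. Plin2, Nr1h3 and Csf1r are higher in all DNR libraries, and Cept1 is lower.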

How the data were processed

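Transcript levels were measured by RNA sequencing in 3 DMSO and 3 DNR samples. The deposited table holds log2(FPKM + 1); its header says FPKM, and 2 raised to a value, less 1, was a 2-decimal number in 100% of cells (tolerance 1e-06 FPKM). Builds were GRCm38 and mm10 per the submitters' processing notes; the aligner, the quantifier and the listing rule were not given in the sources used here. Accessions matched a symbol in the RefSeq table of GRCm38.p6 for 1001 of 1037 transcripts (841 genes).

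Values were compared as deposited with limma 3.58.1 (R 4.3.3, treatment only, mean-variance trend, two-sided, Benjamini-Hochberg over 388 transcripts). The fit was also run on simulated data in which only a part of the transcripts differed. Nearly all were called here, so that run does not bear on these calls. Members and lists were chosen with earlier results of these data known, so no p is given for the members or the list genes. Named genes are all listed transcripts of the members, up to 4 listed genes per lipid list by mean FPKM, the 3 nearest profiles per member (1 of them is not reported here), and markers reaching 1 FPKM. Other pseudocounts, scalings, filters, a replicate block and each library left out were tried.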

Additional observations from a re-analysis of the deposited data

How the results depend on the processing

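Hmgcs1 kept its direction under all alternatives run (0.38 to 0.55 on the log2 scale when a library was left out, 0.61 with a common median, 0.62 with quantile normalization), and so did Lpin2 (-1.54 to -1.19, -1.28 and -1.31). Both were called under all 12 alternative fits, and Abca1 under 10 of 12. Most of the transcripts were called under these fits as well, so being called says little about a member. Of 388, 167 were higher and 136 lower with a common median, and 149 higher and 170 lower with quantile normalization. With a library left out, 166 to 167 were higher and 209 to 216 lower. Abca1 was at -0.21 with a common median and -0.16 with quantile normalization, and its sum over the 2 listed transcripts was at -0.23 and -0.18. Both scalings were computed from the listed transcripts alone. When a library was left out, NM_013454 was at -0.42 to -0.29. With a pseudocount of 0.1 the Abca1 model XM_006537555 was at -1.13 and Nr1h2 at -3.19, and the log2 ratio of mean FPKM for Nr1h2 was -4.73; leaving out a library gave -2.03 to -0.62 for Nr1h2. Of all tested transcripts, 220 were lower in DNR as deposited and 136 with a common median. Replicate numbers are shared between groups, but deviations of same-numbered samples correlated at -0.05, 0.05 and 0.04, and not every sample correlated best with its own number. With the replicate block, 167 transcripts were higher and 218 lower, and the members' differences are the same by construction. Depth is unknown, so what the low values of Nr1h2 and Nr1h3 could resolve cannot be given.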

Other observations

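Some further genes of lipid signalling outside the fixed lists were looked up after the values were seen. Pitpnm2, of the phosphatidylinositol transfer proteins, had 3.97, 1.98 and 2.82 FPKM in the DMSO libraries and 5.86, 5.21 and 5.88 FPKM in the DNR libraries. Inpp5d, which encodes the inositol phosphatase SHIP1, had 7.38, 9.81 and 7.06 FPKM in the DMSO libraries and 4.74, 5.43 and 4.56 FPKM in the DNR libraries. The groups overlapped for neither of them. As 99.7% of all tested transcripts were called between the groups, this says nothing particular about these genes. How often groups did not overlap over all transcripts was not counted.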
